A study of Mus musculus with 11 samples.

Results

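The genes of oxidative phosphorylation encode the 5 protein complexes by which mitochondria pass electrons from nutrients to oxygen and make ATP. They were taken from the deposited count table by symbol: the Nduf genes of the A, B, C, S and V series (complex I), Sdha to Sdhd (complex II), Uqcr (complex III), Cox4 to Cox8 (complex IV), Atp5 (complex V) and the protein genes of the mitochondrial chromosome. Symbols marked as pseudogenes by the ending -ps were left out. This gave 101 of the 55228 symbols, 88 of them nuclear and 13 mitochondrial. No measured value entered the rule. Ndufa4 and Ndufa4l2 are counted with complex IV, where the Ndufa4 protein is now placed.

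Complexes I, III and IV pump protons across the inner mitochondrial membrane, and complex V, the ATP synthase, lets them flow back to drive ATP synthesis. Most subunits are made from nuclear genes and imported, whereas a small set is encoded by the mitochondrial chromosome, which is read as long transcripts from both strands and then cut into single messenger RNAs. Complexes I, III, IV and V need both kinds of subunit, whereas complex II is made from nuclear genes alone. Mouse embryonic stem cells are known to use both glycolysis and respiration.

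The study asked what loss of CTCF, a DNA-binding protein with zinc fingers that helps to fold chromosomes into loops, does to RNA in mouse embryonic stem cells, and what reintroduced CTCF does. All 4 groups were made from the line EN52.9.1, in which endogenous CTCF carries an auxin-inducible degron (AID) that marks the protein for destruction when an auxin is present. EV cells without auxin, whose genotype is labelled untreated (wild-type), gave 3 libraries. EV cells treated with auxin, whose genotype is labelled as depleted of endogenous CTCF, gave 2 libraries. Auxin-treated cells with reintroduced FL CTCF gave 3 libraries, and auxin-treated cells with reintroduced CTCF carrying the H373R substitution gave 3 libraries, whose titles read ZF4. The auxin was indole-3-acetic acid at 500 µM, and how long it was present is not given in the sources used here. Every comparison with EV untreated differs in auxin as well as in CTCF, so effects of auxin itself and of CTCF cannot be told apart there. The line, which the untreated controls share, is the only cell source, and nothing in the labels says that the libraries of a group came from separate cultures. The p-values therefore measure the spread between these libraries, which may be technical.

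Libraries held 13465241 to 29902246 counts. One library stood apart. EV untreated replicate 1 differed from the other 2 libraries of its group by chi-square values of 15.6 and 14.9 per degree of freedom over genes, against 1.93 to 4.77 for all other pairs within a group. Its deviation from its group rose with the GC content of genes (Pearson r = 0.56 across 16242 genes, which are not independent replicates). This r was 0.32 for FL auxin replicate 1 and from -0.38 to 0.15 for the other libraries. The counts of called genes are therefore given with and without EV untreated replicate 1. Ctcf messenger RNA was present in every library at 293.9 to 363.8 CPM (counts scaled to library depth), which is no check of the labels, since the degron acts on protein. All 10 embryonic stem cell markers, Pou5f1 and Nanog among them, reached a level of at least 1 TPM (transcript counts scaled for gene length and depth) in all libraries, with sums of 10955 to 12096. Single markers were not even across groups. From EV untreated to FL auxin, Nanog went from 1083 to 1285 TPM to 863 to 881, and Zfp42 from 1402 to 1517 to 1117 to 1161. Klf4 (413 to 434, then 502 to 517) and Dppa5a (3671 to 4016, then 4472 to 4911) went the other way. The 7 primitive endoderm markers summed to 18.7 to 19.9 TPM in EV untreated, 22.1 to 22.7 in EV auxin, 63.5 to 68.6 in FL auxin and 40.9 to 45.6 in H373R auxin, and 5 of the 7 reached 1 TPM in every library. The 7 fibroblast markers summed to 52.4 to 56.5 TPM in EV untreated, 48.4 to 53.2 in EV auxin, 64.3 to 73.1 in FL auxin and 63.3 to 68.3 in H373R auxin, so that they too were higher with reintroduced CTCF. Thy1 (31.6 to 44.8 TPM) and Col1a1 (14.0 to 25.7) made up most of that sum, 2 of the 7 reached 1 TPM in every library, and Lum, Dcn and Postn were at or near 0. The sums of the 8 mesoderm and neural markers ran from 311 to 439, most of it Tubb3 (259 to 397). From EV untreated to FL auxin, Sox1 went from 8.0 to 9.1 TPM to 16.4 to 17.7, and T from 0.71 to 1.69 to 3.79 to 5.87. Pax6 (0.97 to 1.08, then 0.49 to 0.65) and Myh6 (10.6 to 12.6, then 8.05 to 9.28) went the other way. Fewer cells of one kind and less RNA per cell cannot be told apart in such bulk samples, and the part of other cell types in the results below was not tested.

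Oxidative phosphorylation genes were among the abundant messengers of these cells. Levels of different genes are compared here in TPM, which is scaled for gene length. The median of the mean TPM over all 11 libraries was 170.5 for the 38 nuclear genes of complex I, 309.6 for the 4 genes of complex II, 314.1 for the 8 of complex III, 201.4 for the 21 of complex IV and 192.2 for the 17 of complex V. The highest nuclear gene was Atp5b, the catalytic beta subunit of ATP synthase, with a mean of 1844 TPM, followed by its alpha subunit Atp5a1 with 1799 and by Cox4i1 of complex IV with 1102. The nuclear genes took 1.15% to 1.30% of all counts of a library and the mitochondrial genes 0.50% to 0.74%. Counts of several mitochondrial genes were near 0 or uncertain, as described below, so their share is no measure of all mitochondrial messengers.

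Several subunits exist as a common form and a second form used by other tissues, and embryonic stem cells held mainly the common form. Cox4i1 stood at 996 to 1266 TPM, whereas Cox4i2, the form known from lung and from cells short of oxygen, stood at 19.2 to 44.0. Cox6a1 stood at 626 to 784 TPM and the muscle form Cox6a2 at 2.41 to 7.71. Cox6b1 stood at 512 to 656 TPM and the testis form Cox6b2 at 15.9 to 33.7. For these 3 pairs the lowest library of the common form lay above the highest of the second form. The muscle and heart form Cox7a1 stood at 35.3 to 69.0 TPM, against 313 to 375 for Cox7a2 and 177 to 232 for Cox7a2l, which helps to join complexes into larger assemblies. Cox8a stood at 706 to 885 TPM, Cox8c at 5.39 to 9.81, and Cox8b had counts in 1 library only. Cox7b stood at 325 to 391 TPM and Cox7b2 at 0.696 to 3.54. Not all second forms were rare. Ndufa4l2, known as a gene induced when oxygen is low, stood at 158 to 256 TPM beside 339 to 373.2 for Ndufa4. The 3 genes of the membrane ring of ATP synthase make the same mature protein, and of these Atp5g3 stood at 417 to 482 TPM, Atp5g1 at 75.2 to 110.4 and Atp5g2 at 39.4 to 61.3.

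The 13 mitochondrial genes were counted very unevenly. Of these, 7 had at least 277 counts in every library. They are mt-Co1, the core subunit of complex IV, with 41727 to 72417 counts, mt-Cytb of complex III with 13180 to 26853, and 5 subunits of complex I: mt-Nd1 with 11192 to 21253, mt-Nd2 with 7139 to 13473, mt-Nd4 with 6283 to 13568, mt-Nd5 with 11177 to 23917 and mt-Nd6 with 277 to 630. The other 6 were near 0: mt-Co2 had 3 to 16 counts, mt-Co3 4 to 12, mt-Atp6 2 to 13, mt-Atp8 0 to 3, mt-Nd3 0 to 1 and mt-Nd4l 0 to 1. These genes lie on the same long transcripts as the others, so the counts were compared with the sequences.

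**Figure D1:**
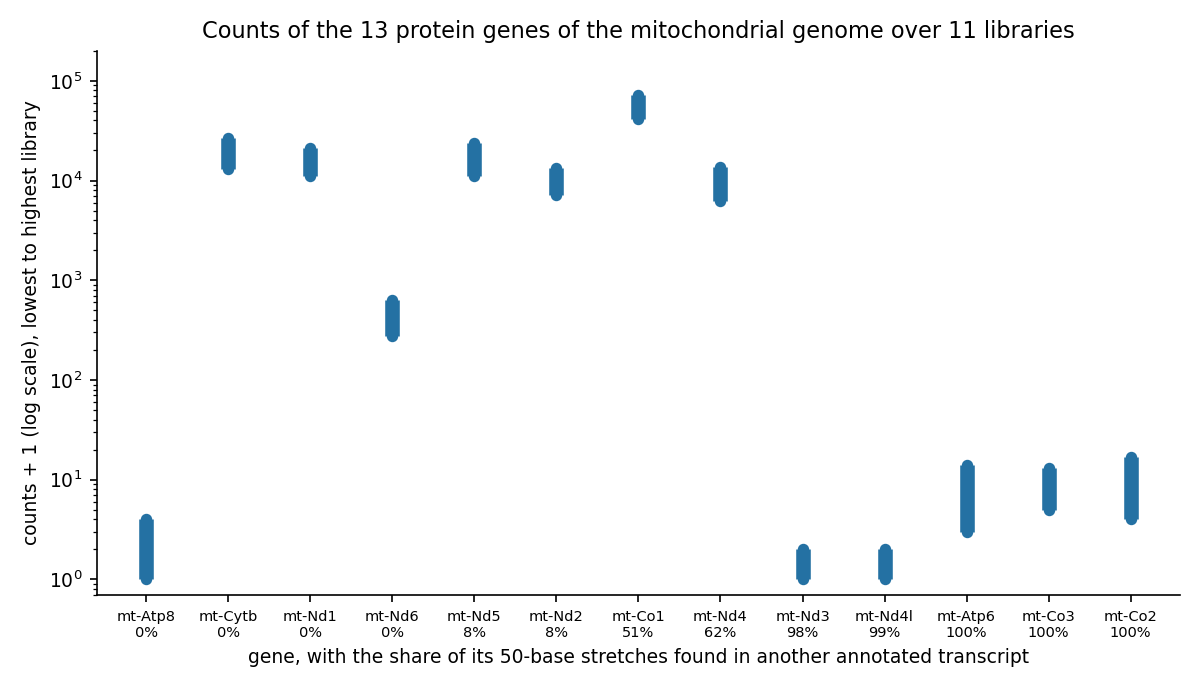
Lowest to highest count over the 11 libraries for each mitochondrial protein gene (vertical axis, counts + 1, log scale), ordered by the share of its 50-base stretches that also occur in another annotated transcript. The 5 genes at the right, with 98% or more shared, had at most 16 counts, and mt-Atp8, with none shared, had at most 3.

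Of the 6 genes near 0, 5 have a nearly complete copy on chromosome 1, annotated as an unprocessed pseudogene. The share of their 50-base stretches found elsewhere in the annotated transcripts was 100% for mt-Co2, 99.9% for mt-Co3, 99.5% for mt-Atp6, 98.8% for mt-Nd4l and 98.0% for mt-Nd3. The genes with high counts shared less, up to 62.2% for mt-Nd4 and 51.1% for mt-Co1. mt-Atp8, also near 0, shared none with an annotated transcript. Copies outside annotated transcripts were not searched. The copies of mt-Co2 (Gm28661, 681 bases compared), mt-Co3 (Gm28437, 783 bases), mt-Atp6 (Gm10925, 678 bases) and mt-Nd4l (Gm10222, 294 bases) were identical to the mitochondrial gene over all bases compared, and had 0 to 6 counts themselves. The copy of mt-Nd3, Gm28438 at chr1:24612775-24613119, differed from mt-Nd3 (chrM:9459-9806) at 1 of 345 bases, T3C counted from the first base of mt-Nd3. The copy had 28 to 74 counts per library where mt-Nd3 had 0 to 1. The first 60 bases of both, from the GENCODE M21 transcripts of build GRCm38, show the only base that separates them in capitals:
mt-Nd3: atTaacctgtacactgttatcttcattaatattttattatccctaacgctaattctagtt
Gm28438: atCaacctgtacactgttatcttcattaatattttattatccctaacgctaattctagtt
Whether the authors' counting left out reads that match more than 1 place is not given in the sources used here. The counts of these 6 genes, of which mt-Co3 alone was tested, are therefore not taken as measures of their RNA, and those of mt-Co1 and mt-Nd4 are uncertain too. Among nuclear genes, 10 shared 20% or more of their 50-base stretches with another gene, including Atp5o, Cox6c2, Atp5g2, Ndufb6 and Ndufa13, and their values carry the same uncertainty.

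A gene was tested where it had enough counts in enough libraries (edgeR's filter), which 16420 genes did, 83 nuclear and 8 mitochondrial members among them. Not tested were Cox7b2, Cox8b, Ndufs6b, Ndufb4c and Ndufa11b of the nucleus and mt-Co2, mt-Atp8, mt-Atp6, mt-Nd3 and mt-Nd4l. Of the nuclear members, Ndufs6b, Ndufa11b, Ndufb4c and Cox6c2 are processed pseudogenes in the annotation, with mean TPM of 0.73, 0.099, 0.44 and 21.0. Changes are log2 fold changes ± the model's standard error from edgeR's quasi-likelihood test, called where the Benjamini-Hochberg adjusted p over all 16420 genes was under 0.05. Values per library are CPM after TMM scaling, which sets libraries of different depth on 1 scale.

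In EV cells treated with auxin, few oxidative phosphorylation genes moved, and those that did were mostly lower. EV auxin against EV untreated, 12 of the 83 nuclear genes fell and 1 rose, 15.7% called, against 20.7% of all genes tested. The 12 lower genes make 14.5% of the nuclear members, against 9.4% of all genes called lower. The median over the 83 genes was -0.10, against 0.01 over all genes. Among the fallers were Ndufb7, Ndufc1, Ndufb5 and Ndufs4 of complex I, Uqcrc1, Uqcrfs1 and Uqcrh of complex III, Cox6b2 of complex IV and Atp5k, Atp5g2 and Atp5mpl of complex V. None of the 4 complex II genes, Sdha to Sdhd, was called, by edgeR, by DESeq2 or by limma on log2(TPM + 1), and 1 had an unadjusted p under 0.05. Their log2 fold changes ran from -0.12 to 0.01.

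**Figure D2:**
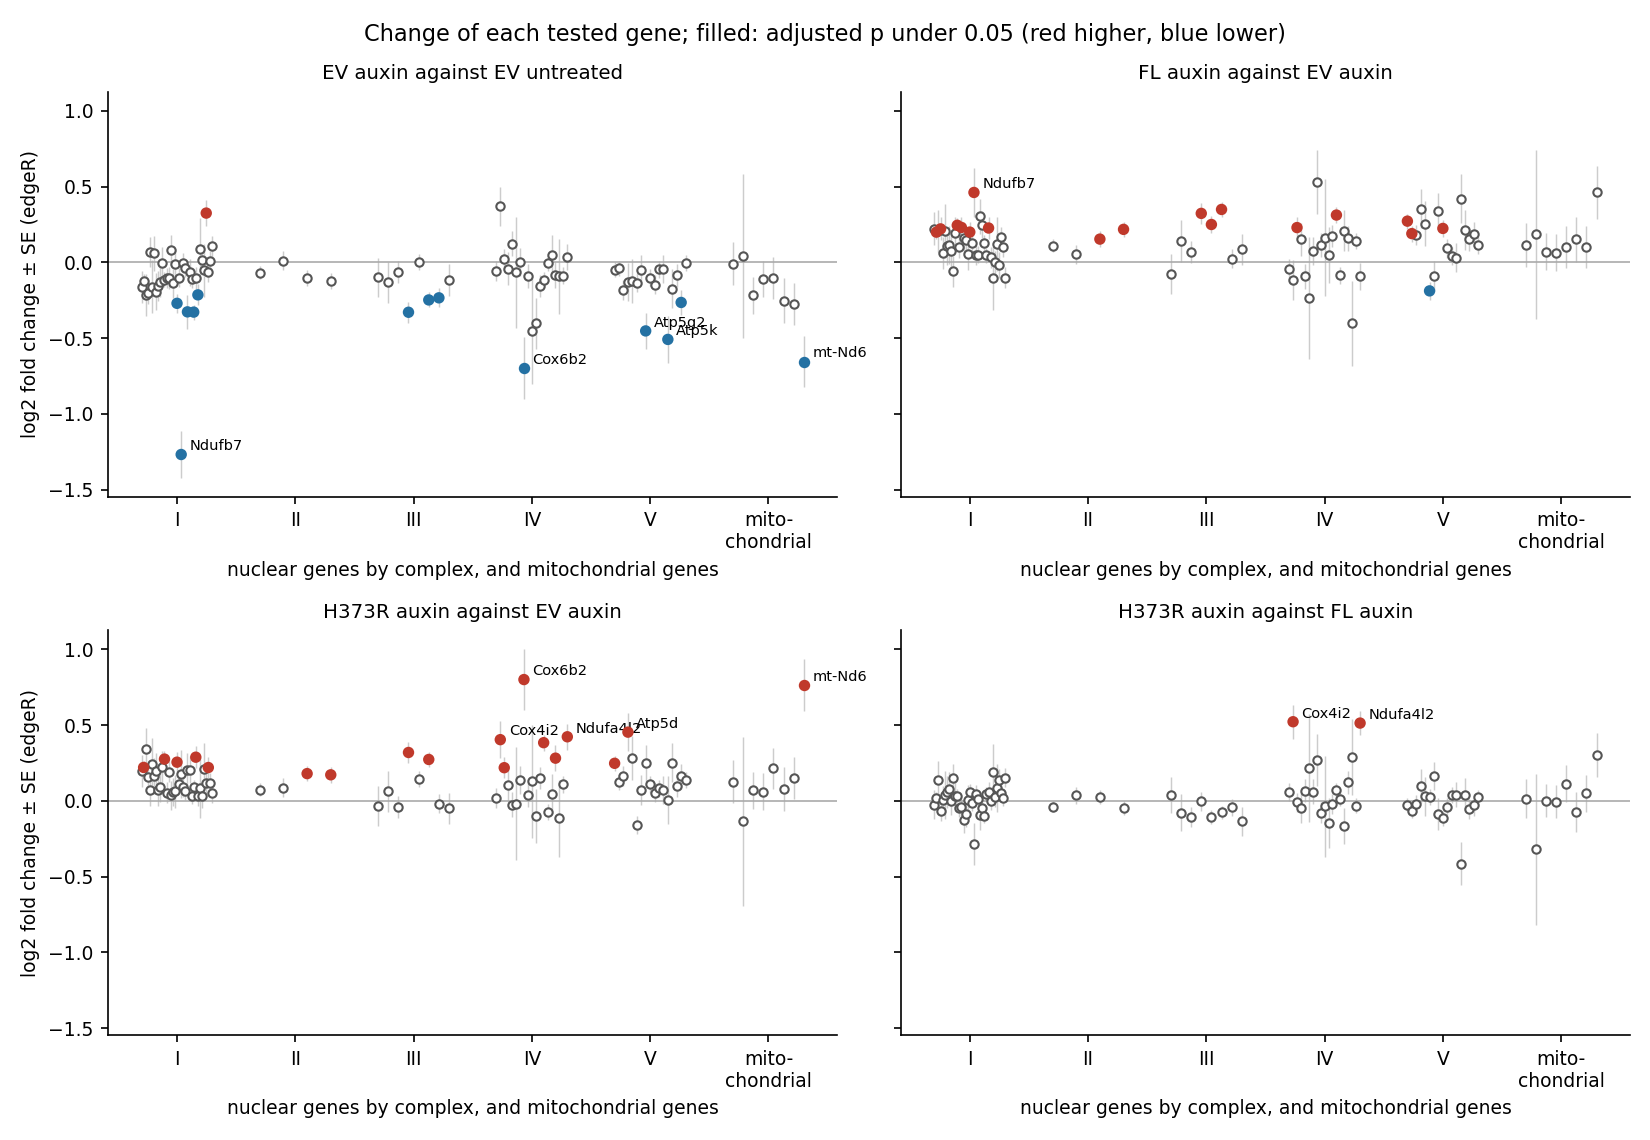
Log2 fold change ± SE (vertical axis) of each tested gene, by complex for nuclear genes and together for the 8 mitochondrial genes, in 4 comparisons. Filled points passed an adjusted p under 0.05, and named points are those beyond 0.4 in either direction. Ndufb7 at -1.27 after auxin stands lowest of all tested members.

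Ndufb7, a complex I subunit on the side of the membrane facing the intermembrane space, had the largest change. It stood at 82.8, 53.9 and 57.2 CPM in EV untreated, at 26.3 and 27.5 in EV auxin, at 42.6, 34.4 and 33.9 in FL auxin and at 30.5, 27.5 and 33.1 in H373R auxin. Every untreated library lay above every auxin-treated library of any group, and the EV auxin and H373R libraries lay next to each other, with 27.5 CPM in a library of each. The log2 fold change after auxin was -1.27 ± 0.16, a ratio of 0.415 (adjusted p = 3.39e-05), and -1.06 without EV untreated replicate 1. FL auxin was higher than EV auxin by 0.46 ± 0.16 (adjusted p = 0.0499). That call was lost, with adjusted p from 0.0533 to 0.208, when either EV auxin library, any FL library or any H373R library was left out. H373R against EV auxin the difference was 0.18 ± 0.16 and not called (adjusted p = 0.472), and H373R against FL it was -0.28 ± 0.14 and not called (adjusted p = 0.272), but called (adjusted p = 0.00919) without EV untreated replicate 1. Ndufb7 lies at chr8:83566671-83571626 on the plus strand. Its nearest tested neighbours, looked up after its value was seen, are Scoc and Gm5910 upstream and Tecr and Dnajb1 downstream. EV auxin against EV untreated, none of them was called, with log2 fold changes of -0.23, -0.45, 0.11 and 0.14 (Dnajb1 adjusted p = 0.0508). Against EV untreated, Scoc was lower in FL (-0.52 ± 0.10, adjusted p = 0.000838) and H373R auxin (-0.40 ± 0.09, adjusted p = 0.00302). Tecr was higher in H373R auxin (0.38 ± 0.06, adjusted p = 6.53e-05), and the remaining differences of FL and H373R from EV untreated were not called.

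Ndufs8, one of the core subunits of complex I that carry iron-sulfur clusters, was the only member to rise. It stood at 59.9, 47.1 and 50.9 CPM in EV untreated, 66.7 and 65.5 in EV auxin, 68.6, 61.5 and 65.5 in FL auxin and 69.4, 69.1 and 76.5 in H373R auxin. All auxin-treated libraries lay above all untreated ones, and FL auxin did not fall back: its difference from EV auxin was -0.02 ± 0.09 and not called. The rise after auxin was 0.32 ± 0.09, a ratio of 1.25 (adjusted p = 0.0137), and 0.41 without EV untreated replicate 1. It lost its call without EV untreated replicate 2 (adjusted p = 0.0552) and without either EV auxin library (adjusted p = 0.0935 and 0.101). Of its 4 nearest tested neighbours, looked up after its value was seen, Tcirg1 also rose, by 0.40 ± 0.12 (adjusted p = 0.0274), and Chka, Aldh3b1 and Unc93b1 were not called.

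Uqcrc1, a core protein of complex III, showed a different order. It stood at 370, 318 and 322 CPM in EV untreated, 262 and 274 in EV auxin, 361, 327 and 318 in FL auxin and 329, 333 and 341 in H373R auxin. Only the 2 EV auxin libraries were low, below every library of the other 3 groups. It fell by 0.33 ± 0.07 on the log2 scale after auxin (adjusted p = 0.00307) and was higher by 0.32 ± 0.07 in both FL (adjusted p = 0.00342) and H373R auxin (adjusted p = 0.00427) than in EV auxin. Without EV auxin replicate 1 these 3 calls were lost, with adjusted p of 0.0520, 0.0530 and 0.0682. Uqcrfs1, the iron-sulfur protein of complex III, followed the same order, with 154, 151 and 147 CPM in EV untreated, 127 and 127 in EV auxin, 165, 165 and 155 in FL auxin and 151, 156 and 153 in H373R auxin.

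The 2 EV auxin libraries decide the weaker calls. Cox6b2 stood at 9.95, 5.97 and 6.61 CPM in EV untreated and 4.68 and 4.73 in EV auxin, a log2 fold change of -0.70 ± 0.20 (adjusted p = 0.0229). Atp5k, a small subunit that helps ATP synthase to form pairs, stood at 46.1, 31.6 and 33.7 CPM in EV untreated and 28.3 and 24.4 in EV auxin, a change of -0.51 ± 0.16 (adjusted p = 0.0306). Atp5g2 changed by -0.45 ± 0.12 (adjusted p = 0.0141). For Cox6b2 and Atp5k, EV untreated replicate 1 was the highest library, and without it the changes were -0.44 and -0.34, still called. Each of these 3 lost its call when either EV auxin library was left out, and Cox6b2 and Atp5k also by limma on log2(TPM + 1), with adjusted p of 0.0626 and 0.0961. Ndufc1 (-0.33 ± 0.11, adjusted p = 0.0477) lost its call without any 1 of 8 libraries, EV untreated replicate 1 among them (adjusted p = 0.0536). With EV auxin replicate 1 or 2 left out, that group held 1 library, and fewer than the 13 nuclear genes were called. Fewer of all genes were called in those fits too. Without EV untreated replicate 1, 20 nuclear genes were called, 15 lower and 5 higher, against 33.3% of all genes called. Of these 20, 12 were among the 13. The lower share was then 18.1% of the members and 17.4% of all genes, and the median was -0.04. The 5 higher genes then were Ndufs8, Cox4i2, Cox6a1, Ndufa13 and Ndufv3.

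**Figure D3:**
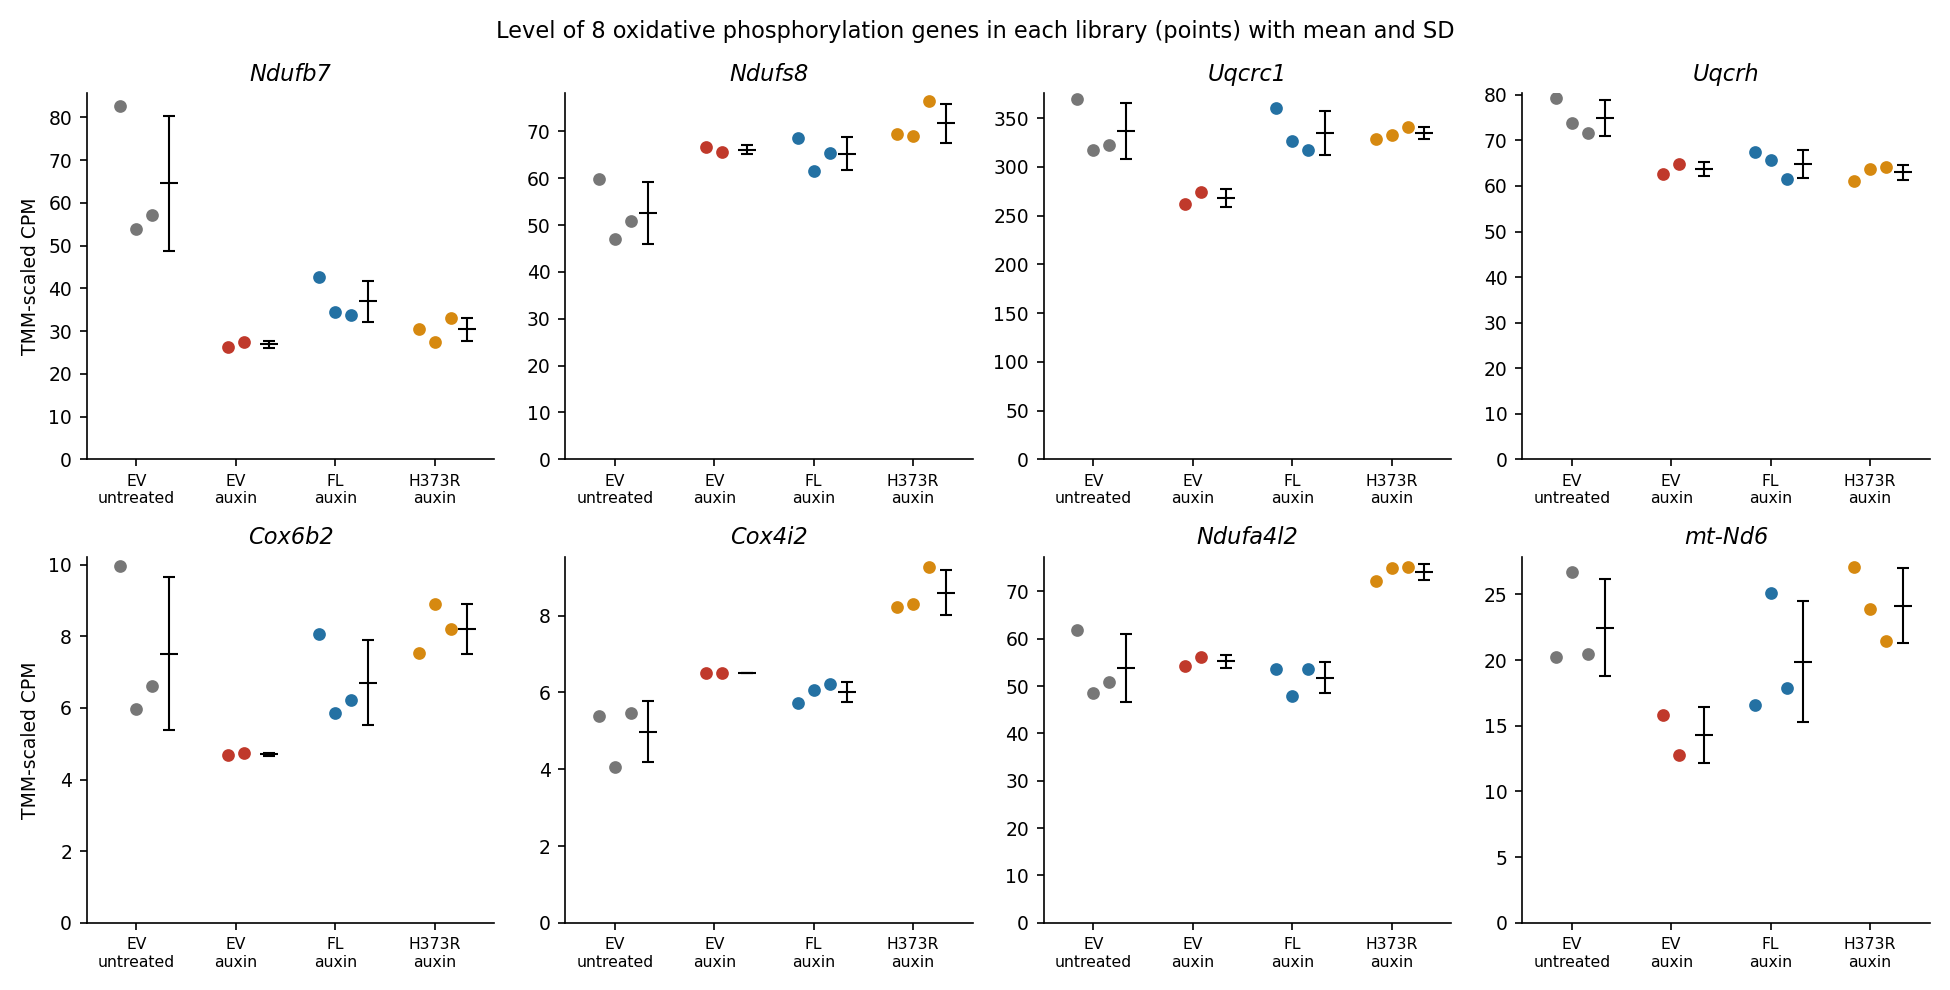
CPM after TMM scaling (vertical axis, from 0) of 8 genes in each library (points) with the group mean and SD (bars). Ndufb7 and Uqcrh were highest in EV untreated, Uqcrc1 was low only in the 2 EV auxin libraries, and Cox4i2 and Ndufa4l2 were highest in the 3 H373R libraries, of which Ndufa4l2 stood at 72.1 to 75.1.

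The promoters of 4 of these genes are shown because 3 of them fell and 1 rose after auxin. CTCF recognises a motif around the letters CCNNNAGGG, and nuclear oxidative phosphorylation genes are known as targets of NRF1 (searched as GCGCATGCG), of ETS factors such as GABP (CCGGAAG) and of YY1 (AAGATGGCG). These letters were searched on both strands of the 300 bases from 250 before to 50 after each RefSeq start, and were chosen with the sequences in view. Capitals mark each match, and overlapping NRF1 matches on both strands run together. RefSeq windows of build GRCm38.p6 are at chr8:83566508-83566807 (plus strand) for Ndufb7, chr9:108936398-108936697 (plus) for Uqcrc1, chr5:108434350-108434649 (minus) for Atp5k and chr19:3912725-3913024 (minus) for Ndufs8:
Ndufb7: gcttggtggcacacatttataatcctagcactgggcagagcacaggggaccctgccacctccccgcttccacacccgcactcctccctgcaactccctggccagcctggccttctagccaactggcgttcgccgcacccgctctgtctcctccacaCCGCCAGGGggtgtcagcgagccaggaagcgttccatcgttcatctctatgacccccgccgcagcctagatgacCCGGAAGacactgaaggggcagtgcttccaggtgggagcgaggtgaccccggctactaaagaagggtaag
Uqcrc1: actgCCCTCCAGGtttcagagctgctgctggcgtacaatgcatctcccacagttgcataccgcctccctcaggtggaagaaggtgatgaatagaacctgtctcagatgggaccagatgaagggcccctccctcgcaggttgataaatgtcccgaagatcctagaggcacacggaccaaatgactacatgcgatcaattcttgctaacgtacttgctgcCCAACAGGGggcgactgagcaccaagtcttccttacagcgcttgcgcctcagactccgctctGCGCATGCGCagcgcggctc
Atp5k: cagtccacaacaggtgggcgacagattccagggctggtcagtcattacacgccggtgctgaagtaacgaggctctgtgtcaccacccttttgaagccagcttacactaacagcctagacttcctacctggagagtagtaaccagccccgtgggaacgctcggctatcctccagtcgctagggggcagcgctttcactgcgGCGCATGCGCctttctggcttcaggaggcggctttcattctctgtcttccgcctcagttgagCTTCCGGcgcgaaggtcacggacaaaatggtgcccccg
Ndufs8: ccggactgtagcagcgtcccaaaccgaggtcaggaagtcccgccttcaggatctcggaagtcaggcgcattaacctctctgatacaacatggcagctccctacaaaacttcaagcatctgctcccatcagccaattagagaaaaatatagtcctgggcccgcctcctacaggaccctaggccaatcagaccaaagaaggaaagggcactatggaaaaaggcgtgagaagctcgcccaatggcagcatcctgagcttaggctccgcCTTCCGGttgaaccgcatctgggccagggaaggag
The window of Ndufb7 holds the CTCF letters CCGCCAGGG starting 94 bases before the start, and CCGGAAG. That of Uqcrc1 holds CCAACAGGG starting 32 bases before the start, a further match on the other strand near its upstream end, and NRF1 letters after the start. That of Atp5k holds NRF1 letters and CTTCCGG, the ETS letters read on the other strand, and that of Ndufs8 holds CTTCCGG alone of the 4 searched. Only exact matches are marked. Stretches 1 letter off the CTCF letters, such as tcgctaggg in Atp5k and cctacagga in Ndufs8, are left in lower case.

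A RefSeq window was found for 67 members, 72 windows in all. The CTCF letters occurred in 23.6% of them and in 21.4% of all 32851 windows, and a G-quadruplex pattern (4 runs of at least 3 G, with 1 to 7 bases between) in 18.1% and 18.6%. The NRF1 letters occurred in 11.1% and 1.75%, the ETS letters in 23.6% and 8.86%, and the YY1 letters in 9.72% and 1.40%. Of the genes that fell after auxin, 10 had a window, and the CTCF letters stood in 4 of them (Ndufb7, Uqcrc1, Ndufb5 and Ndufs4), against 12 of the 55 other tested genes with a window. The same split was 3 of 10 against 5 of 55 for NRF1, 3 against 14 for ETS, 2 against 5 for YY1 and 2 against 11 for the G-quadruplex pattern. Only exact matches were counted, so sites that differ from the searched letters are missed. These matches describe letters in a window and are no measure of binding.

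With FL CTCF the nuclear genes that were called stood almost all higher than in EV auxin. FL auxin against EV auxin, 17 of 83 rose and 1 fell, 21.7% called, against 24.5% of all genes. The 17 higher genes are 20.5% of the members, against 11.1% of all genes called higher. The median was 0.14, against -0.01 over all genes, and 69 of the 83 changes were above 0. By complex, 7 of 35 complex I genes rose, 2 of 4 in complex II (Sdhc and Sdhd), 3 of 8 in complex III, 2 of 19 in complex IV and 3 of 17 in complex V.

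Cox7a2l stood at 69.3 and 69.6 CPM in EV auxin and at 88.6, 86.4 and 83.7 in FL auxin, with no overlap, a change of 0.31 ± 0.05 (adjusted p = 0.000715). Atp5a1, the alpha subunit of ATP synthase, stood at 1391 and 1317 CPM in EV auxin and at 1665, 1657 and 1582 in FL auxin, a change of 0.27 ± 0.05 (adjusted p = 0.000980). Uqcrfs1 rose by 0.35 ± 0.05 (adjusted p = 0.000170), and Uqcrc2, the partner of Uqcrc1, by 0.25 ± 0.05 (adjusted p = 0.00339). Ndufa9, at the junction of the arms of complex I, rose by 0.24 ± 0.05 and Ndufb11 by 0.23 ± 0.07. Uqcrc2 lost its call without EV auxin replicate 2 (adjusted p = 0.0515), and Ndufb11 lost it without either EV auxin library or without FL replicate 1 or 2 (adjusted p from 0.0665 to 0.180).

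The faller was Atp5f1, a stalk subunit of ATP synthase, with 307 and 289 CPM in EV auxin and 255, 266 and 263 in FL auxin, a change of -0.19 ± 0.06 (adjusted p = 0.0320). EV untreated stood at 302, 351 and 327 and H373R at 260, 273 and 265, so the cells with reintroduced CTCF were the lowest. This call was lost when any FL, EV auxin or H373R library was left out, with adjusted p from 0.0514 to 0.240. The number of called nuclear genes was 10 without FL replicate 1 or 2. It was 41 (40 higher) without EV untreated replicate 1, against 35.5% of all genes in that fit and 18.4% called higher. All 18 were among the 41. Without FL replicate 1 and 2, 2999 and 3275 of all genes were called, against 4016 with all libraries. With EV auxin replicate 1 or 2 left out, which leaves 1 library in that group, fewer nuclear genes and fewer of all genes were called. EV untreated libraries enter this comparison through the shared estimate of the spread, the scaling and the filter.

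With H373R CTCF the called nuclear genes all stood higher than in EV auxin, and 66 of 83 were not called. H373R auxin against EV auxin, 17 of 83 rose and none fell, 20.5% called, against 21.7% of all genes and 10% called higher. The median was 0.12, against 0.00 over all genes, and 73 of 83 changes were above 0. All 35 complex I changes were above 0, and 5 of them were called. Cox6b2 stood at 7.53, 8.91 and 8.19 CPM in H373R auxin, above the 4.68 and 4.73 of EV auxin, a change of 0.80 ± 0.20 (adjusted p = 0.0107). Cox7a2l stood at 89.7, 92.4 and 89.9 CPM, a change of 0.38 ± 0.05 (adjusted p = 0.000228). Atp5d, the delta subunit of the ATP synthase head, stood at 172, 176 and 189 CPM in H373R auxin and 129 and 133 in EV auxin, a change of 0.45 ± 0.13 (adjusted p = 0.0181). In each of these 3 genes the H373R libraries lay above both EV auxin libraries. Ndufa4l2 rose by 0.42 ± 0.09 (adjusted p = 0.00326) and Cox4i2 by 0.40 ± 0.12 (adjusted p = 0.0271). Ndufs3, a core subunit of complex I, rose by 0.29 ± 0.07 (adjusted p = 0.00957). Without EV auxin replicate 1 or 2, which leaves 1 library in that group, fewer than the 17 nuclear genes were called. Cox6b2, Atp5d, Ndufs3 and Cox4i2 lost their calls there. Fewer of all genes were called in those fits too. The nuclear count was 10 without H373R replicate 3, where Atp5d and Cox4i2 had adjusted p of 0.0687 and 0.0989. That fit called 2440 of all genes, against 3570 with all libraries. The nuclear count was 34 without EV untreated replicate 1, 33 of them higher, against 33% of all genes and 16.7% called higher.

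FL and H373R were set against EV auxin in comparisons that share the 2 EV auxin libraries, so the overlap of their calls is not given as a result. The direct comparison of the 2 forms of CTCF found little difference. H373R against FL, 2 of 83 nuclear genes were higher and none lower, 2.41% called, against 5.96% of all genes (3.14% higher and 2.82% lower). The median was 0.01 over members and 0.00 over all genes. None of the nuclear genes of complexes I, II, III and V was called. At an unadjusted p under 0.05 there were 1, 0, 1 and 2, while DESeq2 called 1 gene of complex V and limma none.

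Both genes that differed are of complex IV and are second forms of a subunit. Cox4i2 stood at 8.22, 8.30 and 9.27 CPM in H373R auxin, 5.73, 6.08 and 6.22 in FL auxin, 6.50 and 6.52 in EV auxin and 5.39, 4.06 and 5.47 in EV untreated. Ndufa4l2 stood at 72.1, 75.0 and 75.1 CPM in H373R auxin, 53.7, 48.0 and 53.6 in FL auxin, 54.2 and 56.2 in EV auxin and 61.9, 48.5 and 50.9 in EV untreated. For both genes the lowest H373R library exceeded the highest of the remaining 8. H373R exceeded FL by 0.52 ± 0.11 for Cox4i2 (adjusted p = 0.0110) and by 0.51 ± 0.08 for Ndufa4l2 (adjusted p = 0.00103). Ndufa4l2 kept its call in all 21 alternatives. Cox4i2 lost it without FL replicate 1 (adjusted p = 0.0504) and without H373R replicate 3 (adjusted p = 0.0728). Their common partners overlapped between the 2 groups. Cox4i1 stood at 1107, 1084 and 1130 TPM in H373R auxin and 1087, 996 and 1040 in FL auxin. Ndufa4 stood at 344, 359 and 373.2 TPM in H373R auxin and 356, 369 and 356 in FL auxin.

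The neighbours of these 2 genes were looked up after their values were seen. Ndufa4l2 lies at chr10:127514967-127517154, and its upstream neighbour Stac3 was also higher in H373R than in FL, by 0.92 ± 0.22 (adjusted p = 0.0193). The overlapping neighbour Shmt2 differed by 0.04 and R3hdm2 by 0.07, neither called. Nxph4 differed by -0.15 between the forms, not called, but fell by 1.06 ± 0.10 on the log2 scale after auxin. Cox4i2 lies at chr2:152754173-152765037, and of its neighbours Mcts2 was higher in H373R by 0.33 ± 0.08 (adjusted p = 0.0231), while Id1, Bcl2l1 and Tpx2 were not called. Without EV untreated replicate 1, 7 nuclear genes were called between the 2 forms, against 14.2% of all genes (6.45% higher and 7.77% lower): Cox4i2, Ndufa4l2, Ndufv3 and Ndufa7 higher and Atp5k, Ndufb7 and Atp5g3 lower in H373R. One was called without FL replicate 1 or without H373R replicate 3, where 792 and 510 of all genes were called, against 979 with all libraries.

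Set against untreated cells, some genes stood displaced in the auxin-treated cells with either reintroduced form. FL auxin against EV untreated, 8 of 83 nuclear genes were higher and 5 lower, 15.7% called, against 36.9% of all genes (17.7% higher and 19.2% lower). H373R auxin against EV untreated, 14 were higher and 7 lower, 25.3% called, against 44.4% of all genes (22.3% higher and 22.1% lower). Both shares lie below the share of all genes, and both medians were near 0, at 0.02 and 0.03. In both comparisons Ndufb7, Ndufs4, Uqcrh and Atp5f1 were lower and Ndufs8, Cox5a, Cox7a2l and Atp5a1 higher. The 2 comparisons share the untreated libraries.

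Ndufb7 was lower than in untreated cells by 0.81 ± 0.14 on the log2 scale in FL auxin and by 1.09 ± 0.13 in H373R auxin, and its changes without EV untreated replicate 1 were -0.58 and -0.88. Cox4i2 was higher in H373R by 0.77 ± 0.11 (adjusted p = 3.87e-05) and Ndufa4l2 by 0.46 ± 0.08 (adjusted p = 0.000191). Uqcrh, the hinge protein of complex III, stood at 79.4, 73.9 and 71.7 CPM in EV untreated, 62.7 and 64.8 in EV auxin, 67.4, 65.6 and 61.5 in FL auxin and 61.1, 63.8 and 64.1 in H373R auxin, so that no auxin-treated library reached an untreated one. Cox5a, a subunit of complex IV, stood at 179, 166 and 158 CPM in EV untreated and at 202, 214, 183, 192, 208 and 196 in the 6 libraries with reintroduced CTCF, all above the untreated ones, while EV auxin, at 170 and 171, lay within the untreated range. Cox7a1 was lower in H373R by 0.50 ± 0.15 (adjusted p = 0.0126), and by 0.29 without EV untreated replicate 1, its highest untreated library with 9.85 CPM against 6.71 and 6.79. Cox8a, Atp5d, Ndufb2, Ndufa9, Atp5b and Ndufs4 had calls that several single libraries decided, with log2 changes of at most 0.32 in size. Removing trends with GC content and length ended the calls of Atp5a1, Atp5f1, Atp5d, Cox8a and Ndufs4 for H373R, whose changes then were 0.05, -0.08, 0.06, 0.02 and -0.09. Without EV untreated replicate 1 the counts were 37 (32 higher) and 41 (32 higher). The shares of all genes called were then 47.2% for FL (23.4% higher and 23.8% lower) and 54.7% for H373R (27% higher and 27.7% lower). Without EV untreated replicate 3 the count for H373R was 13, where 6041 of all genes were called, against 7292 with all libraries.

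In the levels of the mitochondrial genes, libraries of 1 group often lay far apart. After auxin 1 of 8 tested genes fell and none rose, and the median was -0.16. That is 12.5% called, against 20.7% of all genes called and 9.4% called lower. The faller was mt-Nd6, the only protein gene on the light strand of the mitochondrial chromosome (chrM:13552-14070, minus strand). It stood at 20.2, 26.7 and 20.5 CPM in EV untreated, 15.8 and 12.8 in EV auxin, 16.6, 25.1 and 17.8 in FL auxin and 27.1, 23.9 and 21.4 in H373R auxin. Both EV auxin libraries lay below all libraries of the other groups. It fell by 0.65 ± 0.17 on the log2 scale after auxin (adjusted p = 0.0120) and stood 0.77 ± 0.17 higher in H373R than in EV auxin (adjusted p = 0.00500). Both calls were lost without EV auxin replicate 2, with adjusted p of 0.188 and 0.102. FL exceeded EV auxin by 0.46 ± 0.18, not called (adjusted p = 0.0673), but called without EV untreated replicate 1 (adjusted p = 0.0136).

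The other mitochondrial genes were called in no comparison. mt-Co1 stood at 5034, 7754 and 6548 TPM in EV untreated, 7119 and 5901 in EV auxin, 5788, 7403 and 7012 in FL auxin and 6952, 7424 and 6430 in H373R auxin, so that the groups overlapped. mt-Cytb stood at 2715, 3834 and 3279 TPM in EV untreated, 3071 and 2660 in EV auxin, 2501, 3158 and 2976 in FL auxin and 3004, 3041 and 2761 in H373R auxin. EV untreated replicate 1 was the lowest of all libraries for mt-Co1 and the lowest of its group for mt-Cytb. Over all 11 libraries mt-Nd1 ranged from 2558 to 3699 TPM, mt-Nd2 from 1387 to 2109, mt-Nd4 from 964 to 1562 and mt-Nd5 from 1279 to 2104. After auxin the log2 changes were -0.11 ± 0.12 for mt-Nd1, -0.10 ± 0.14 for mt-Nd2, -0.25 ± 0.15 for mt-Nd4, -0.27 ± 0.14 for mt-Nd5, -0.22 ± 0.12 for mt-Cytb, -0.01 ± 0.14 for mt-Co1 and 0.04 ± 0.54 for mt-Co3, which had 4 to 12 counts.

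Both mt-Nd6 calls were kept without EV untreated replicate 1 and with GC content and length trends removed. Calls of further mitochondrial genes came in those alternatives. Without EV untreated replicate 1, 6 of the 8 mitochondrial genes were lower after auxin, against 17.4% of all genes called lower. Their changes were -0.74 for mt-Nd6, -0.44 for mt-Nd4, -0.43 for mt-Nd5, -0.35 for mt-Cytb, -0.27 for mt-Nd2 and -0.24 for mt-Nd1. mt-Nd4, mt-Nd5 and mt-Cytb were then also lower in FL and in H373R auxin than in untreated cells, where 23.8% and 27.7% of all genes were called lower. With GC content and length trends removed, 7 of the 8 were higher in H373R than in EV auxin, all but mt-Co3, and mt-Nd2, mt-Nd4 and mt-Nd6 were higher in FL than in EV auxin. Removing the trends raised the genes called in either direction among all genes too, from 3570 to 5090 for H373R and from 4016 to 5876 for FL. Against untreated cells mt-Nd1, mt-Nd2, mt-Co1 and mt-Nd6 were then higher in H373R, and mt-Nd2 and mt-Co1 in FL, so that the 2 alternatives called genes in opposite directions. Here the calls among all genes rose from 7292 to 8138 for H373R and from 6052 to 7412 for FL. The fit with trends removed also called mt-Nd2 and mt-Nd6 higher in H373R than in FL, and mt-Nd5 and mt-Nd6 lower after auxin. It called 2252 and 4992 of all genes there, against 979 and 3392 before. With all libraries, FL against EV auxin called none of the 8 (1 at an unadjusted p under 0.05, 1 by DESeq2, none by limma), but 1 when EV untreated replicate 1 or 2 or FL replicate 1 was left out. FL against EV untreated called 1 without FL replicate 2. H373R against FL, and each form against EV untreated, called none (none at an unadjusted p under 0.05, and none by DESeq2 or limma). The mitochondrial ribosomal RNAs mt-Rnr1 and mt-Rnr2, which are no protein genes and were listed beside the members, were higher in FL than in EV auxin by 0.46 ± 0.11 and 0.46 ± 0.10 and in H373R by 0.42 ± 0.11 and 0.46 ± 0.10 (adjusted p from 0.00428 to 0.0114). How far the libraries were freed of ribosomal RNA is not given in the sources used here.

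Summed over all members, the nuclear genes were lowest in EV auxin. The sums were 12745, 12031 and 11740 CPM in EV untreated, 11685 and 11282 in EV auxin, 12939, 12949 and 12364 in FL auxin and 12501, 12756 and 12686 in H373R auxin. Both EV auxin libraries lay below all others, the nearer of them just under EV untreated replicate 3. In summed TPM this order did not hold, since EV untreated replicate 2 was lowest with 21873, against 21929 and 21914 in EV auxin. The group means ± SD were 12172 ± 517 (n = 3), 11484 ± 285 (n = 2), 12751 ± 335 (n = 3) and 12648 ± 132 (n = 3). Over all regroupings of the 11 libraries, an exact permutation test of the 4 groups gave p = 0.0310. EV auxin stood 0.08 below EV untreated on the log2 scale, and FL and H373R stood 0.15 and 0.14 above EV auxin. Each of these pairs gave a two-sided exact permutation p = 0.2, the smallest that 3 libraries against 2 allow, adjusted p = 0.3 over 6 pairs. The 4-group p rose to 0.0836 without EV auxin replicate 2 and to between 0.0529 and 0.0562 without FL replicate 1 or 2 or H373R replicate 2 or 3. It was 0.372 for summed TPM, 0.0662 without the most abundant gene and 0.00429 without EV untreated replicate 1.

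**Figure D4:**
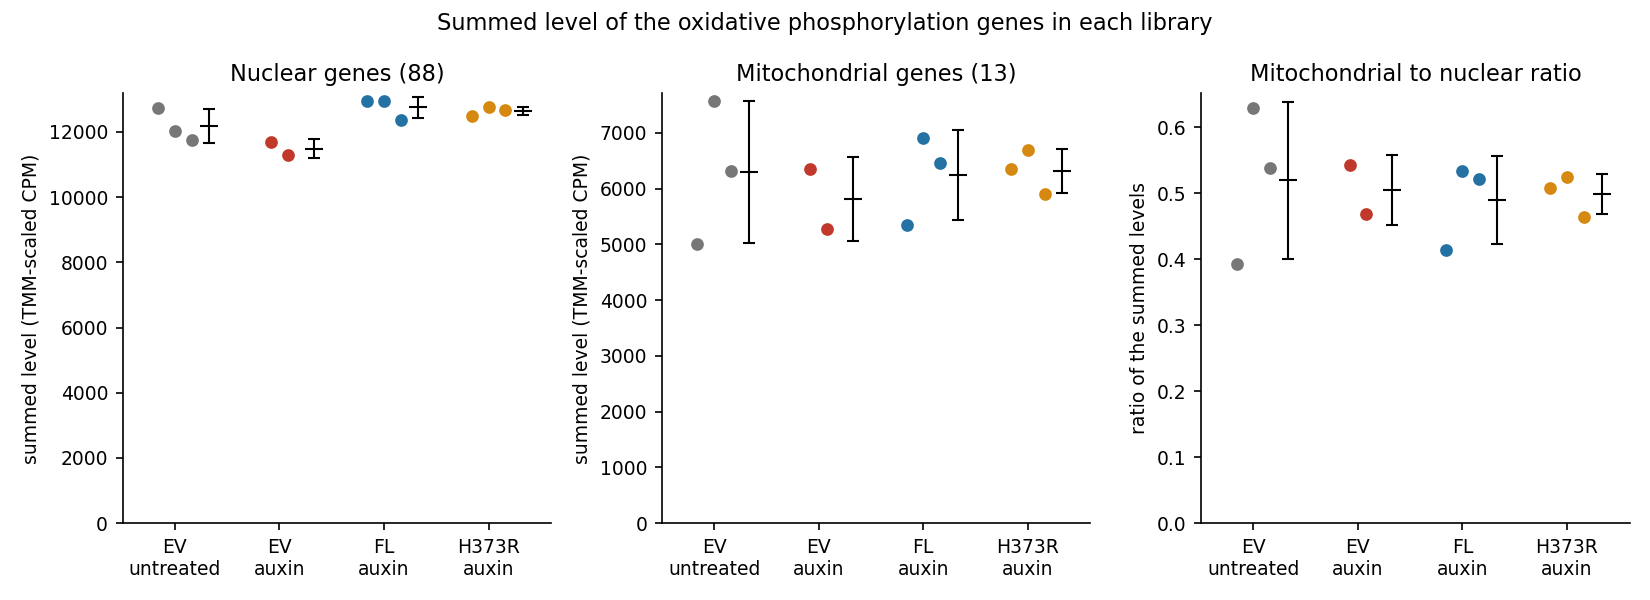
Summed CPM after TMM scaling of the 88 nuclear and 13 mitochondrial genes, and their ratio (vertical axes, from 0), in each library (points) with the group mean and SD (bars). The 2 EV auxin libraries have the lowest nuclear sums, 11282 and 11685, whereas mitochondrial sums and ratios overlap between all groups.

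The mitochondrial sums did not separate the groups. They were 5010, 7567 and 6320 CPM in EV untreated, 6348 and 5282 in EV auxin, 5353, 6914 and 6460 in FL auxin and 6358, 6686 and 5896 in H373R auxin, and the range within EV untreated spanned all the others. The exact permutation p over 4 groups was 0.923. The ratio of mitochondrial to nuclear sums was 0.520 ± 0.119 in EV untreated (n = 3), 0.506 ± 0.053 in EV auxin (n = 2), 0.490 ± 0.066 in FL auxin (n = 3) and 0.499 ± 0.031 in H373R auxin (n = 3), with an exact permutation p of 0.987. EV untreated replicate 1 had both the lowest mitochondrial sum and the lowest ratio, 0.393. mt-Co2, mt-Co3, mt-Atp6, mt-Atp8, mt-Nd3 and mt-Nd4l add almost nothing to these sums, and their counts are not taken as measures of their RNA. Those of mt-Co1 and mt-Nd4, which are also in the sums, are uncertain.

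Genes that serve the same complexes but lie outside the symbol rule held some larger changes, and those named are the ones with the smallest adjusted p of their lists. Ndufaf3, an assembly factor of complex I, stood at 13.1, 11.8 and 10.6 CPM in EV untreated, 1.94 and 2.08 in EV auxin, 5.39, 4.78 and 4.90 in FL auxin and 2.02, 2.31 and 1.85 in H373R auxin. The 4 groups fell into 3 levels, with H373R overlapping EV auxin and FL between them and the untreated cells. It fell by 2.55 ± 0.14 on the log2 scale after auxin (adjusted p = 6.56e-09) and was lower in H373R than in FL by 1.30 ± 0.14 (adjusted p = 5.66e-05). Ndufab1, the acyl carrier protein that is also a subunit of complex I, stood at 32.6, 27.8 and 27.4 CPM in EV untreated, 13.2 and 12.2 in EV auxin, 22.7, 23.4 and 20.9 in FL auxin and 15.5, 15.6 and 15.0 in H373R auxin. Its groups did not overlap, and it changed by -1.21 ± 0.09 after auxin (adjusted p = 2.07e-07) and by -0.54 ± 0.08 in H373R against FL (adjusted p = 0.00108). Mrps2, a protein of the small mitochondrial ribosomal subunit, stood at 89.3, 101.8 and 97.9 CPM in EV untreated, 28.9 and 28.1 in EV auxin, 77.7, 76.9 and 83.0 in FL auxin and 44.0, 45.0 and 42.2 in H373R auxin. It changed by -1.76 ± 0.07 after auxin (adjusted p = 1.82e-10) and by -0.86 ± 0.06 in H373R against FL (adjusted p = 5.23e-07).

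Lists of neighbouring functions are set against the 20.7% of all genes called after auxin, 11.3% higher and 9.4% lower. After auxin 4 of 16 complex I assembly factors fell and none rose, Ndufaf3 and Nubpl among them. Of 23 tested complex IV assembly factors, 2 rose (Coa4 and Cox19) and 1 fell (Cmc1), and of 14 factors for complexes II, III and V, 2 fell (Sdhaf3 and Sdhaf4). Of 77 mitochondrial ribosomal proteins 5 rose and 8 fell, Mrps16 by 1.14 ± 0.08 upward. Of 17 genes that keep and transcribe mitochondrial DNA 3 rose, Polg and Polg2 among them, and of 18 that process mitochondrial RNA none was called (1 at an unadjusted p under 0.05, none by DESeq2 or limma). Of 11 nuclear regulators, Nrf1 and Ppargc1b rose by 0.20 and 0.42 and Gabpa and Gabpb1 fell by 0.30 and 0.43. The tricarboxylic acid cycle had 1 of 17 genes higher, Idh2 by 0.30 ± 0.07, and 3 lower, Suclg2 and Ogdh among them. In the cells with reintroduced CTCF it had 5 of 17 genes higher and none lower for FL and 4 higher and none lower for H373R, against EV auxin, where 11.1% and 10% of all genes were called higher. Without EV untreated replicate 1 both counts were 10 higher, where 18.4% of all genes for FL and 16.7% for H373R were called higher. After auxin that fit called 16% of all genes higher and 17.4% lower. In it the cycle had 1 higher and 6 lower, and complex I assembly factors 1 and 5. The RNA processing list had 2 and 5, the ribosomal proteins 14 and 11, and the regulators 2 and 4. Idh2 stood at 67.6, 61.2 and 61.5 CPM in EV untreated, 77.8 and 78.3 in EV auxin, 120.0, 106.8 and 108.3 in FL auxin and 97.5, 103.8 and 104.6 in H373R auxin. H373R against FL, lower calls were Ndufaf3, Ndufaf4, Ndufab1, Nrip1, Hspd1 and Mrps2 among all these lists, and there was none higher. Of all genes 2.82% were called lower and 3.14% higher in that comparison.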

How the data were processed

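RNA of 11 libraries was sequenced (NEBNext Ultra II Directional kit, per the labels' protocols). The authors deposited raw counts per gene symbol. The submitters' processing notes name featureCounts, Subread 2.0.3, DESeq2 and the builds mm10 and GRCm38 without their roles, and the strand setting is not given in the sources used here. The deposited TPM values of the authors were used for levels and limma. The members and gene lists were chosen with earlier results of these data known. Counts were fitted in edgeR 4.0.16 (R 4.3.3): TMM scaling, filterByExpr by group, a quasi-likelihood model of 4 group means over all 11 libraries, and Benjamini-Hochberg adjustment over 16420 genes, called under 0.05. Named genes were the mitochondrial protein genes, up to 8 members per direction and comparison with the largest called changes, isoform groups, the Sdh genes, untested members and, of each other list, the 2 genes with the smallest adjusted p per direction after auxin and in H373R against FL. Alternatives used DESeq2 1.42.0, limma 3.58.1 on log2(TPM + 1) or log2(TPM + 0.1), RLE scaling, no filter, a replicate block, removal of GC content and length trends, and each library left out. Sums of CPM were compared by exact permutation of libraries. Shared 50-base stretches and positions came from GENCODE M21, promoters from RefSeq. Scripts were tested on simulated data. Results for 1 member are not reported here, though it enters the counts and sums.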

Additional observations from a re-analysis of the deposited data

Results flagged for a closer look

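For 2 genes the response to the 2 reintroduced forms of CTCF differed by a test of the difference itself, H373R auxin against FL auxin, each against the same EV auxin cells. Cox4i2 was higher with H373R by 0.522 on the log2 scale and Ndufa4l2 by 0.513, in 3 of 3 H373R libraries for both (edgeR's quasi-likelihood test, adjusted p = 0.0110 and 0.00103). Primitive endoderm markers also differed between these groups, 40.9 to 45.6 TPM in H373R and 63.5 to 68.6 in FL, and their part in the result was not tested.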

How the results depend on the processing

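None of the 56 called gene results reversed direction. The median over nuclear genes, near 0 in 3 comparisons, did turn: for FL against EV untreated from 0.02 to -0.02 by limma on log2(TPM + 1), for H373R against EV untreated from 0.03 to -0.0034 without EV untreated replicate 3, and for H373R against FL from 0.01 to -0.03 with trends removed or without FL replicate 3 and to -0.01 without H373R replicate 3. Of these 56 results, 25 kept their call in all alternatives and 31 lost it in at least 1. Counts of called nuclear genes with 1 library left out ran from 4 to 20 for EV auxin against EV untreated, 7 to 41 for FL and 6 to 34 for H373R against EV auxin, 1 to 7 for H373R against FL, and 10 to 37 for FL and 13 to 41 for H373R against EV untreated. In the same order the mitochondrial counts ran from 0 to 6, 0 to 1, 0 to 2, 0 to 0, 0 to 3 and 0 to 3. The p of the summed nuclear level ran from 0.00429 to 0.0836, and was 0.372 for summed TPM and 0.0662 without the most abundant member.

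For EV auxin against EV untreated the nuclear count was 6 by limma without a TPM filter, 31 with GC content and length trends removed and 5 with only the libraries compared. Over all genes these settings called 2420, 4992 and 2016, against 3392 with the settings used above. The mitochondrial count was 4 without a filter, where 3563 of all genes were called, 0 by limma without a TPM filter and 2 with trends removed. For FL against EV auxin the nuclear count was 11 by limma with either pseudocount, 9 without a TPM filter, 33 with trends removed and 33 with only the libraries compared. Over all genes limma called 3706 and 3674 with the larger and smaller pseudocount and 3270 without a TPM filter. With trends removed 5876 were called, and 4969 with only the libraries compared, against 4016 with the settings used above. The mitochondrial count was 1 by DESeq2, 2 without a filter, 1 with the replicate block, 3 with trends removed and 1 with only the libraries compared. For H373R against EV auxin the nuclear count was 26 without a filter, 8 by limma without a TPM filter and 42 with only the libraries compared. Over all genes these settings called 3839, 2335 and 5909, against 3570 with the settings used above. The mitochondrial count was 4 without a filter, 7 with trends removed, where 5090 of all genes were called, and 3 with only the libraries compared. For H373R against FL the nuclear count was 4 without a filter, 5 with trends removed and 5 with only the libraries compared. Over all genes these settings called 1297, 2252 and 1815, against 979 with the settings used above. The mitochondrial count was 1 without a filter and 2 with trends removed. For FL against EV untreated the nuclear count was 25 with trends removed and the mitochondrial count 2 without a filter and 2 with trends removed. Over all genes 7412 were called with trends removed and 6303 without a filter, against 6052 with the settings used above. For H373R against EV untreated the nuclear count was 12 by limma without a TPM filter, and the mitochondrial count was 3 without a filter and 4 with trends removed. Over all genes these settings called 5837, 7601 and 8138, against 7292 with the settings used above. The counts over all genes also shifted when single libraries were left out, so the member counts alone are no result about the members. The cause of these shifts was not tested.

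Whether replicate numbers pair the libraries is not settled. Of 15 pairs with the same number 3 correlated above 0.1, and 6 of 11 libraries correlated best with their own number. The highest, at 0.28, was EV untreated replicate 1 with FL auxin replicate 1, whose deviations both rose with GC content. With the replicate block Cox4i2 in H373R against EV auxin had an adjusted p of 0.0591. With 2 EV auxin libraries, small changes against that group are measured least well, and genes with few counts, such as mt-Co3, have wide errors.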
